A study of Drosophila melanogaster with 12 samples.

Results

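Genes of retinal glia and of the blood-brain barrier were followed in larval eye discs of Drosophila melanogaster in which a microRNA and a cell cycle transcription factor had been overexpressed. The set was chosen by gene symbol and holds repo, gcm, moody, Mdr65, Gs2, Eaat1, wrapper, loco, nrv2 and CG30035. All 10 were found among the 13281 genes of the authors' deposited table. None of the 10 was called different from the control in any genotype, where at most 0.617% of all genes were called on either side. The widest differences belonged to the efflux pump gene Mdr65 with miR-11 alone, the trehalose transporter gene CG30035 with all 3 transgenes, and the barrier receptor gene moody in both genotypes with dE2F1/dDP.

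Glia of the fly eye disc are not born among the photoreceptors. They are made in the optic stalk and brain and move into the disc behind the morphogenetic furrow, where photoreceptors begin to form. There they meet the new axons and wrap them on the way to the brain. Surface glia also seal the nervous system from the blood. Perineurial glia form the outermost layer and import sugar, and subperineurial glia beneath them are joined by septate junctions and carry the efflux pumps of the barrier.

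The 4 genotypes, with 3 biological replicates each, were GMR-Gal4/UAS-miR-11, GMR-Gal4 with UAS-dE2F1 and UAS-dDP, GMR-Gal4 with all 3 of these transgenes, and GMR-Gal4 alone as the control. All animals therefore carried the driver and were larvae of the third instar raised at 25 degrees Celsius. GMR-Gal4 acts in the eye disc behind the furrow, and the labels do not say whether it acts in the glia there. miR-11 is a microRNA, encoded in an intron of the E2f1 gene, and dE2F1 and dDP pair to drive transcription of cell cycle genes. The question here is how glia and barrier genes stand in each transgenic genotype against the driver control, and whether the combination departs from the sum of the single effects.

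Values for named genes come from the authors' rank product analysis, which gives an average log2 fold change over the control, one-sided p-values for higher and for lower expression, and a pfp, the share of false positives expected down to a gene's place in the ranking, which can exceed 1. Genes with a pfp under 0.05 on the side of their fold change were called. Calls were rare, from 0.136% to 0.309% of all genes on the higher side and from 0.143% to 0.617% on the lower, by genotype. A short list without a call is therefore not evidence that its genes did not change. The authors' deposited table gives no array values, so no SD or n stands beside its numbers, and log2 differences, not levels, are what is described. Because no gene was read as a level, the tissue label and the presence of glia could not be checked against marker levels. On the 12 arrays, where gene names were not given for the probe sets, the standard error of a log2 difference between 2 genotypes had a median of 0.17 over 18769 probe sets, and for 10% of probe sets it was above 0.49. These values describe the arrays and are not the error of any one gene. In a bulk disc, fewer glia and less RNA per glial cell cannot be told apart.

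The factors that set glial identity came first. The homeodomain protein Repo is made by nearly all glia of the fly outside the midline and serves as their marker. The log2 fold change of repo was -0.18 with miR-11, 0.06 with dE2F1/dDP and 0.16 in discs with all 3 transgenes in the authors' deposited table. Its smallest one-sided p-value over these comparisons was 0.3618, for lower expression with miR-11, in the authors' deposited table. These differences were about as large as the median standard error over probe sets, or smaller, but that is not the error of repo. The value with miR-11 lay below the lower quartile of all genes, -0.14. The value with all 3 transgenes lay above the upper quartile, 0.13.

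The gene gcm encodes the transcription factor that switches neural precursors to the glial fate and acts upstream of repo. It stood below the control in every transgenic genotype, at log2 -0.64 with miR-11, -0.47 with dE2F1/dDP and -0.50 in discs with all 3 transgenes in the authors' deposited table. The p-values for lower expression were 0.0148, 0.0340 and 0.0149 in that order of the authors' deposited table, with pfp values of 1.2844, 0.7029 and 0.4937, so gcm was not called. The 3 comparisons share the control arrays.

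Other factors of glial specification lay on both sides of 0 in the genotypes with dE2F1/dDP. Of the 8 genes of that list, which includes repo and gcm, 0 were positive with miR-11 (median log2 -0.20), 5 with dE2F1/dDP (median 0.23) and 5 with all 3 transgenes (median 0.24) in the authors' deposited table, against medians of -0.03, -0.03 and -0.03 over all genes. None of the 8 was called, where at most 0.617% of all genes were called on either side. The ETS factor gene pnt, which acts in glia and also in photoreceptors, was at log2 -0.90 with miR-11 (pfp = 0.7806) and at 0.94 with dE2F1/dDP (pfp = 0.3234) in the authors' deposited table. The zinc finger factor gene zfh1 was at log2 0.88 with dE2F1/dDP (pfp = 0.3154) in the authors' deposited table. The homeobox gene pros was at log2 -0.26 with miR-11, -0.56 with dE2F1/dDP (pfp = 0.4219) and -0.59 with all 3 transgenes (pfp = 0.2699) in the authors' deposited table.

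**Figure D1:**
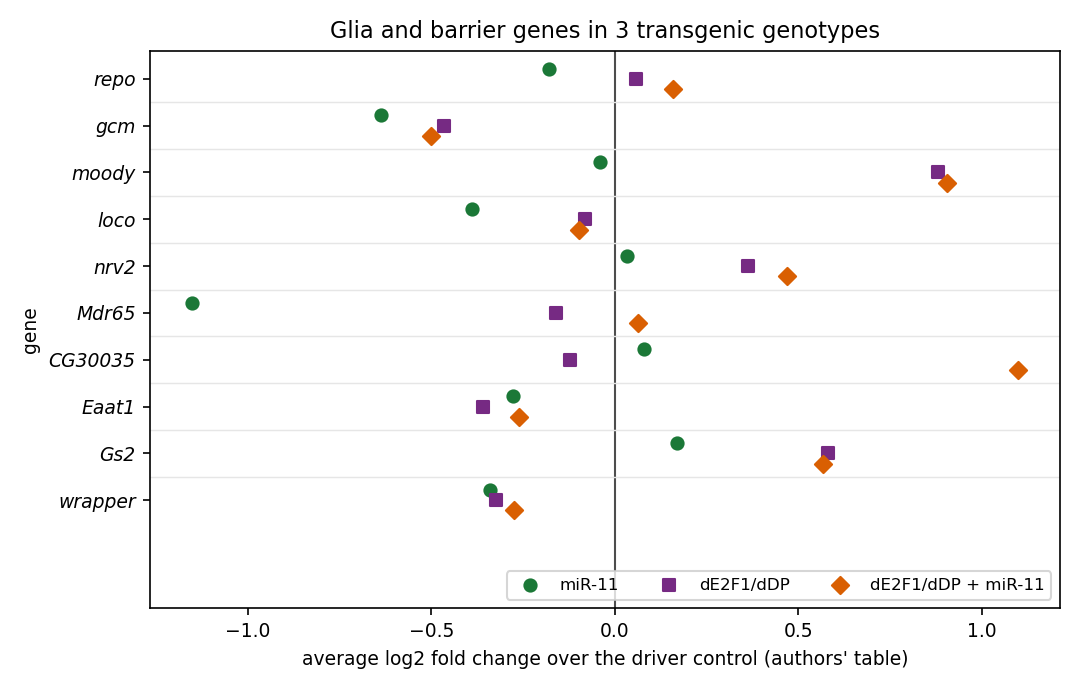
Average log2 fold change over the driver control (horizontal axis) of each of the 10 genes (vertical axis) in miR-11 (circles), dE2F1/dDP (squares) and dE2F1/dDP with miR-11 (diamonds), from the authors' deposited table, which gives no error. Mdr65 stands apart with miR-11 alone at -1.15, CG30035 with all 3 transgenes at 1.10, and moody in the 2 genotypes with dE2F1/dDP at 0.88 and 0.91.

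The seal of the barrier was described next, from its receptor to its junctions. The gene moody encodes a G protein-coupled receptor of subperineurial glia that is needed for tight septate junctions. It was at log2 0.88 with dE2F1/dDP (1.84-fold, p for higher = 0.0035) and 0.91 with all 3 transgenes (1.87-fold, p for higher = 0.0013) in the authors' deposited table. Its log2 fold change was -0.04 with miR-11 alone in the authors' deposited table. Among the 13281 genes, moody ranked 106 from the top with dE2F1/dDP and 82 from the top with all 3 transgenes. Its pfp was 0.3769 and 0.1836 in these comparisons of the authors' deposited table, so it was not called in either. With miR-11 alone the p-values of moody were 0.1090 for higher and 0.1842 for lower expression in the authors' deposited table, both small for a fold change near 0.

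The gene loco encodes an RGS protein that works with the Moody receptor on G protein signalling. It was at log2 -0.39 with miR-11, -0.08 with dE2F1/dDP and -0.10 in discs with all 3 transgenes in the authors' deposited table. The p-value for lower expression with miR-11 was 0.1092 in the authors' deposited table. In both genotypes with dE2F1/dDP, moody thus lay in the upper tail of all genes and loco near 0.

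Of the 8 genes of the moody signalling list, which includes both, 4 were positive with miR-11, 7 with dE2F1/dDP (median log2 0.36) and 7 with all 3 transgenes (median 0.31) in the authors' deposited table. Over all genes 43%, 42.9% and 44.1% were positive in that order. None of the 8 was called, where at most 0.617% of all genes were called on either side. Pka-C1, a catalytic subunit of protein kinase A that acts below Moody, was at log2 0.86 with dE2F1/dDP (pfp = 0.3105) and 0.96 with all 3 transgenes (pfp = 0.1398) in the authors' deposited table. It is made in most cells of the disc, as are the G protein subunits of the list.

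The gene nrv2 encodes a beta subunit of the sodium-potassium ATPase that is made in glia and is also a part of septate junctions. It was at log2 0.03 with miR-11, 0.36 with dE2F1/dDP and 0.47 in discs with all 3 transgenes in the authors' deposited table. The p-values for higher expression were 0.4340, 0.1691 and 0.0446 in that order of the authors' deposited table, and the pfp with all 3 transgenes was 0.6264. Its paralogue nrv1, which lies next to it in the genome, was at log2 0.09, 0.22 and 0.36 in the authors' deposited table, in the same order of genotypes.

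Septate junctions are also made by the disc epithelium, so their genes are not particular to glia. Of the 23 genes of the junction list 22 were matched, nrv2 among them. With miR-11, 6 were positive (median log2 -0.08), with dE2F1/dDP 19 (median 0.37) and with all 3 transgenes 18 (median 0.34) in the authors' deposited table. Over all genes 43%, 42.9% and 44.1% were positive in that order. None of the 22 was called, where at most 0.617% of all genes were called on either side. At a p-value under 0.05, 2 were lower with miR-11 and 6 were higher in each of the other genotypes, where 3.41% of all genes were lower with miR-11 and 6.03% and 7.4% higher in the other 2, in the authors' deposited table. Atpalpha, the catalytic partner of the Nrv proteins, was at 2.02-fold with dE2F1/dDP (pfp = 0.2344) and 2-fold with all 3 transgenes (pfp = 0.1042) in the authors' deposited table. The junction scaffold gene cora was at log2 -0.31 with miR-11 (p for lower = 0.0192) and 0.77 with all 3 transgenes (pfp = 0.3712) in the authors' deposited table. The scaffold gene yrt was at log2 -0.23 with miR-11 and 0.78 with dE2F1/dDP (pfp = 0.4855) in the authors' deposited table. Genes of eye disc identity stood in the same range, with 10 of 12 positive and a median of 0.45 with dE2F1/dDP and 11 of 12 positive and a median of 0.34 with all 3 transgenes in the authors' deposited table. The part of the disc epithelium in the values of nrv2 and the junction list was not tested.

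The transporters of the barrier held the lowest and the highest value of the set. Mdr65 encodes an ABC efflux pump of subperineurial glia, a relative of mammalian P-glycoprotein that keeps drugs out of the brain. With miR-11 alone it was at log2 -1.15, that is 2.22-fold lower, with a p-value for lower expression of 0.0002 in the authors' deposited table. It ranked 26 from the bottom of the 13281 genes. Its pfp was 0.1326 in the authors' deposited table, so it was not called. With dE2F1/dDP Mdr65 was at log2 -0.16 and with all 3 transgenes at 0.06 in the authors' deposited table. The low value thus belonged to the discs with miR-11 alone and not to those with miR-11 and dE2F1/dDP together.

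CG30035, now named Tret1-1, encodes a trehalose transporter that brings the main blood sugar of insects into perineurial glia. With all 3 transgenes it was at log2 1.10, that is 2.14-fold higher, with a p-value for higher expression of 0.0003 in the authors' deposited table. Its rank was 40 from the top, and its pfp of 0.0679 was the smallest of any of the 10 genes in the authors' deposited table, just outside the threshold. With miR-11 alone CG30035 was at log2 0.08 and with dE2F1/dDP alone at -0.12 in the authors' deposited table. In the genotype with all 3 transgenes, 10 of 11 muscle genes were positive (median log2 0.80) in the authors' deposited table. Prm and Mhc were called higher, where 0.233% of all genes were. In the same genotype, 2 of 10 fat body genes (median -0.38) and 1 of 11 salivary gland genes (median -1.5) were positive in the authors' deposited table, against 44.1% of all genes. The part of these tissues in the value of CG30035 was not tested, and summed levels of their markers could not be formed from fold changes.

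Other transporters of these classes did not share either value. Of the 7 efflux and organic ion transporter genes, Mdr65 included, 2 were positive with miR-11, 4 with dE2F1/dDP and 3 in discs with all 3 transgenes in the authors' deposited table. Over all genes 43%, 42.9% and 44.1% were positive in that order. Of the 7, 0 were called, where at most 0.617% of all genes were called on either side. The related pump gene Mdr49 was at log2 -0.27 with miR-11 (p for lower = 0.0977) and Mdr50 at 0.05 in the authors' deposited table. The ABC transporter gene MRP was at log2 0.70 with dE2F1/dDP (pfp = 0.5504) and 0.77 with all 3 transgenes (pfp = 0.3590) in the authors' deposited table. Oatp30B, an organic anion transporter gene, was at log2 0.45 (pfp = 0.8491) and 0.42 (pfp = 0.7314) in these comparisons of the authors' deposited table.

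Genes next to the transporters in the Release 6 gene order did not carry these differences either. The neighbours of Mdr65 are CG10226, at log2 0.18 with miR-11, and Best2, at 0.01, in the authors' deposited table. The neighbours of CG30035 are its paralogue Tret1-2, listed as CG8234, at log2 0.24 with all 3 transgenes, and CG13198, at 0.02, in the authors' deposited table. For moody, the neighbours CG4325 and Sik2, listed as CG4290, were at log2 -0.20 and 0.02 with dE2F1/dDP in the authors' deposited table. In each of these 3 cases the member stood well outside the values of the genes beside it.

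Glutamate handling was read from 2 genes. Eaat1 encodes the transporter by which glia clear glutamate from around neurons. It was at log2 -0.28 with miR-11, -0.36 with dE2F1/dDP and -0.26 in discs with all 3 transgenes in the authors' deposited table. The p-values for lower expression were 0.1412, 0.0735 and 0.0750 in the same order of the authors' deposited table. Gs2 encodes a glutamine synthetase, which turns the cleared glutamate into glutamine. It was at log2 0.17, 0.58 and 0.57 in these genotypes, with p-values for higher expression of 0.1291, 0.0410 and 0.0187 in the authors' deposited table. The transporter was below and the enzyme above the control in each comparison, and neither was called.

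Of the 12 genes of glial glutamate, amine and sugar handling 11 were matched, Eaat1, Gs2 and CG30035 among them. With miR-11, 5 were positive (median log2 -0.08), with dE2F1/dDP 5 (median -0.05) and with all 3 transgenes 6 (median 0.10) in the authors' deposited table. Over all genes 43%, 42.9% and 44.1% were positive in that order. None of the 11 was called, where at most 0.617% of all genes were called on either side. The astrocyte-like glia marker alrm, listed as CG11910, was at log2 -0.91 with miR-11 (pfp = 0.5267), -1.10 with dE2F1/dDP (pfp = 0.1354) and -0.93 with all 3 transgenes (pfp = 0.1264) in the authors' deposited table. Gs1, the mitochondrial glutamine synthetase gene, was at log2 0.42 with miR-11 (p for higher = 0.0430) in the authors' deposited table. Unlike Gs2, it lay below the control with dE2F1/dDP, at -0.25, and with all 3 transgenes, at -0.29.

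The gene wrapper encodes an immunoglobulin superfamily protein by which glia ensheath axons. It was at log2 -0.34 with miR-11, -0.32 with dE2F1/dDP and -0.27 in discs with all 3 transgenes in the authors' deposited table. Its p-values for lower expression were 0.1107, 0.1069 and 0.0709 in that order of the authors' deposited table. Among the 10 genes, wrapper varied least between the transgenic genotypes, by at most log2 0.07.

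Genes of glial wrapping, engulfment and migration numbered 14, wrapper included. With miR-11, 4 were positive (median log2 -0.13), with dE2F1/dDP 12 (median 0.42) and with all 3 transgenes 11 (median 0.34) in the authors' deposited table. Over all genes 43%, 42.9% and 44.1% were positive in that order. None of the 14 was called, where at most 0.617% of all genes were called on either side. The EGF receptor ligand gene vn was at log2 0.83 with dE2F1/dDP (pfp = 0.4961) and 0.56 with all 3 transgenes (pfp = 0.4844) in the authors' deposited table. The FGF ligand gene pyr was at log2 0.66 (pfp = 0.6674) and 0.55 (pfp = 0.5229) in the same comparisons of the authors' deposited table. With miR-11, the laminin gene LanA was at log2 -0.36 (p for lower = 0.0323) and the FGF ligand gene ths at 0.40 (p for higher = 0.0659) in the authors' deposited table. Most of this list is also used by the disc epithelium.

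Taking the 10 genes by genotype, 3 were positive and 7 negative with miR-11, with a median log2 fold change of -0.23, in the authors' deposited table. Over all genes the median was -0.03 and 43.0% were positive. No member was called with miR-11, against calls in the higher direction for 0.309% of all genes and in the lower for 0.143% in the authors' deposited table. At an unadjusted p-value under 0.05, gcm and Mdr65 were lower and 0 members higher, against 3.41% of all genes lower and 3.52% higher in the authors' deposited table.

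With dE2F1/dDP, 4 members were positive and 6 negative, with a median of -0.10, in the authors' deposited table. No member was called, against 0.136% of all genes on the higher side and 0.211% on the lower in the authors' deposited table. At an unadjusted p-value under 0.05, moody and Gs2 were higher and gcm was lower, against 6.03% and 6.85% of all genes in the authors' deposited table. The members at the ends of the set were moody and gcm. Of the 10, 4 lay within the interquartile range of all genes, against 2 with miR-11 and 2 with all 3 transgenes.

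With all 3 transgenes, 6 members were positive and 4 negative, with a median of 0.11, in the authors' deposited table. No member was called, against 0.233% of all genes on the higher side and 0.617% on the lower in the authors' deposited table. At an unadjusted p-value under 0.05, CG30035, moody, Gs2 and nrv2 were higher and gcm was lower, against 7.4% and 7.08% of all genes in the authors' deposited table. At a pfp under 0.1, CG30035 alone of the 10 was called, where 0.437% of all genes were higher in the authors' deposited table. In each genotype the members lay on both sides of 0.

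**Figure D2:**
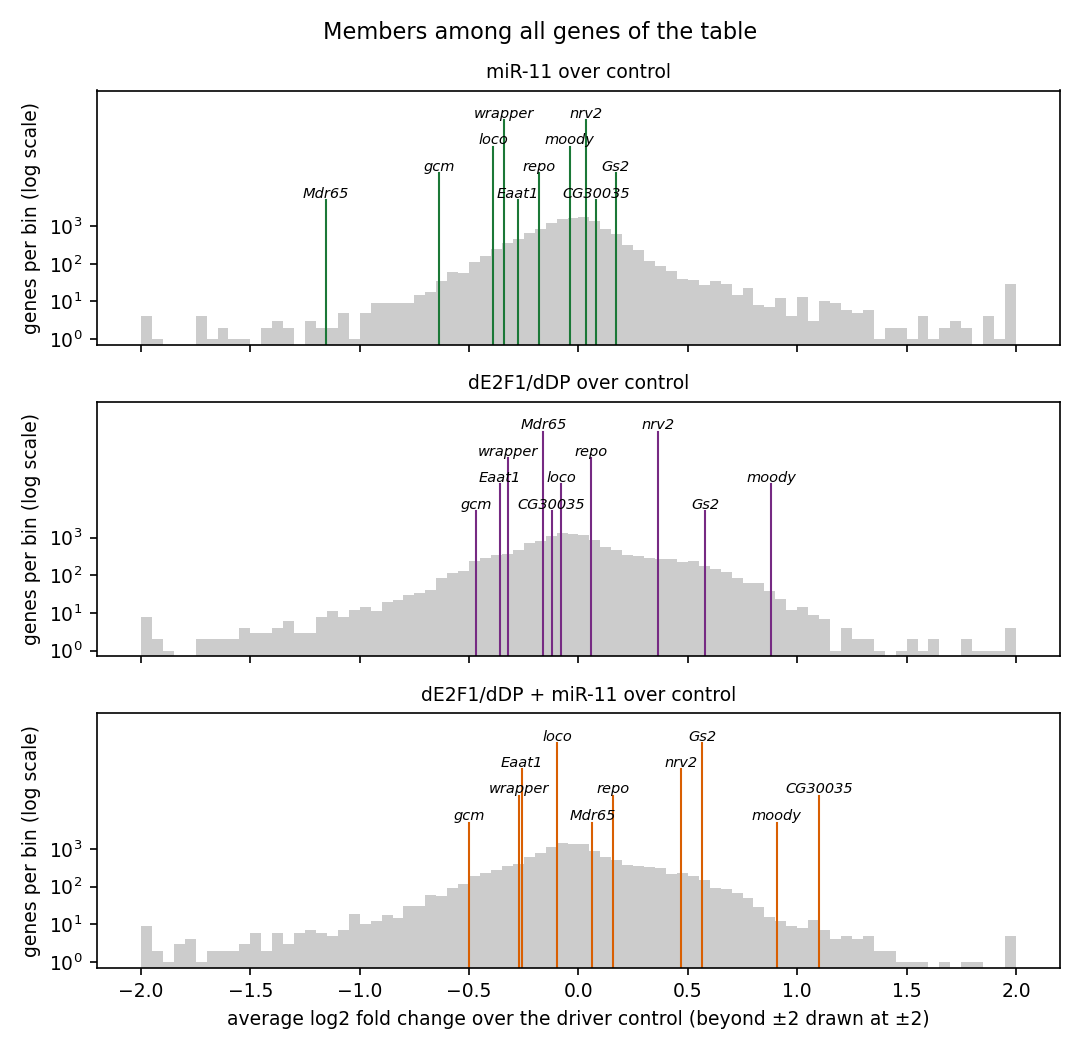
Number of genes (vertical axis, log scale) by average log2 fold change over the driver control (horizontal axis, with values beyond 2 in size drawn at the ends) for miR-11, dE2F1/dDP and dE2F1/dDP with miR-11, from the authors' deposited table. Lines mark the 10 genes, with heights set only to keep names apart, and show Mdr65 at -1.15, moody at 0.88 and CG30035 at 1.10 in the thin tails while most others lie in the body of the distribution.

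Differences between the transgenic genotypes do not depend on the control arrays, which cancel out. Between all 3 transgenes and miR-11 alone, the difference formed from the authors' deposited table was log2 1.22 for Mdr65 (rank 30 from the top of all genes), 1.02 for CG30035 (rank 86) and 0.95 for moody (rank 128). Over all genes the 5th and 95th percentiles of this difference were -0.49 and 0.65. Between all 3 transgenes and dE2F1/dDP alone, the difference formed from the authors' deposited table was log2 1.22 for CG30035 (rank 21) and 0.22 for Mdr65, and the other 8 members lay between -0.03 and 0.11. Between dE2F1/dDP alone and miR-11 alone, it was log2 0.99 for Mdr65 (rank 110) and 0.92 for moody (rank 168) in the authors' deposited table. These differences have no test, since the table gives none.

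The non-additive part is the log2 fold change with all 3 transgenes minus the sum of those with miR-11 alone and with dE2F1/dDP alone. It was log2 1.38 for Mdr65, rank 33 from the top of 13281 genes, and 1.14 for CG30035, rank 48, as formed from the authors' deposited table. The 2 genes reached it in different ways. For Mdr65 the single fold changes summed to -1.31 while the combined genotype was at 0.06, and for CG30035 they summed to -0.04 while the combined genotype was at 1.10, in the authors' deposited table. The combined value of moody lay close to the sum, with a non-additive part of 0.07, and so did that of nrv2, with 0.07, as formed from the authors' deposited table. Gs2 had the only negative value, at -0.18, and gcm the third highest, at 0.60, as formed from the authors' deposited table.

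In all, 9 of the 10 non-additive parts were positive with a median of 0.38, against 55.2% positive and a median of 0.03 over all genes, as formed from the authors' deposited table. The genes gcm, Eaat1, wrapper and loco lay below the control in each genotype. In the non-additive part the control is subtracted once from the combined genotype and added back for each single one. A control value that is high by error would therefore raise the non-additive part. Whether this held for these genes was not tested. On the arrays the standard error of a non-additive part had a median of 0.25 over probe sets, and for 10% of probe sets it was above 0.70. Eaat1 (0.38), wrapper (0.39), loco (0.37) and repo (0.28), as formed from the authors' deposited table, were nearer to that median than to the upper value. That error is not their own. Among all genes these 4 stood above 91.8%, 92.4%, 91.6% and 86.3% in the same order. Of the 10 members, 2 lay within the interquartile range of the non-additive part over all genes.

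Among the other genes of the 6 glia-related lists, the highest non-additive part was that of alrm, listed as CG11910, at 1.07, as formed from the authors' deposited table. The gene alrm also lay below the control in each genotype, at log2 -0.91, -1.10 and -0.93. The part of the shared control in its positive value was not tested. In the junction list non-additive parts ran from -0.25 for the adhesion molecule gene Nrg to 0.54 for cora, as formed from the authors' deposited table. In the moody signalling list they ran from -0.31 for Gbeta13F, a G protein beta subunit, to 0.37 for loco, itself 1 of the 10 members. Without the members the highest value of that list was 0.30, as formed from the authors' deposited table. The lowest of the glial fate list was ct at -0.32, of the metabolic list Gs1 at -0.46 and of the transporter list Mdr50 at -0.20, as formed from the authors' deposited table. In the wrapping and migration list they ran from -0.49 for ths to 0.40 for LanA, as formed from the authors' deposited table.

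**Figure D3:**
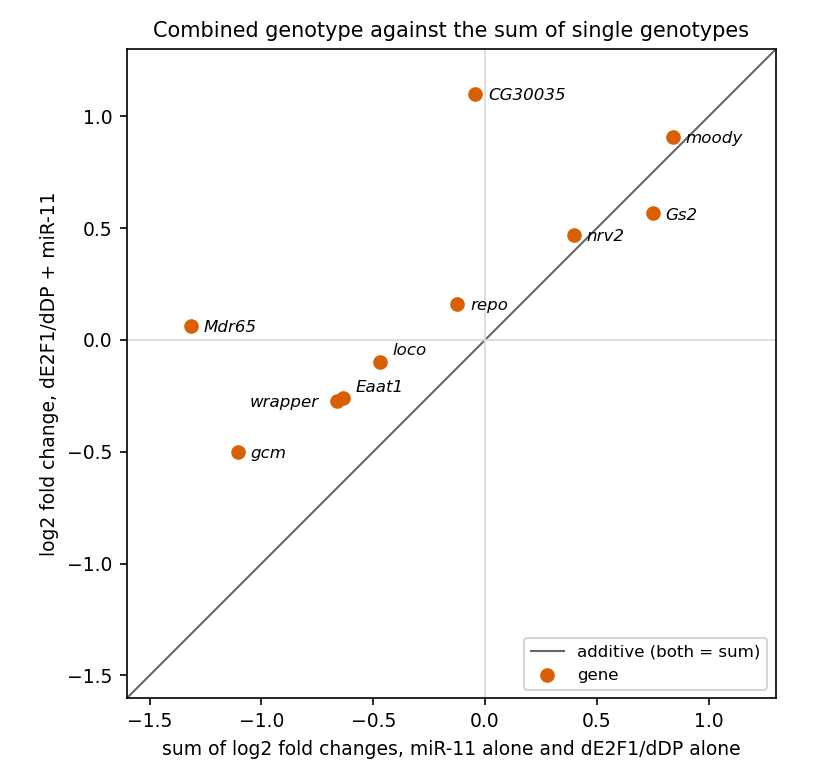
Log2 fold change over the control with dE2F1/dDP and miR-11 together (vertical axis) against the sum of the log2 fold changes of the single genotypes (horizontal axis) for the 10 genes, from the authors' deposited table. The line marks additivity; moody and nrv2 lie near it, and Mdr65 and CG30035 lie above it by 1.38 and 1.14.

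Markers of other tissues that a dissected disc can carry were read in the same way. Neurons of brain and nerve, the tissue glia come in with, had 7 of 13 genes positive with miR-11 (median log2 0.04) in the authors' deposited table. With dE2F1/dDP 5 were positive (median -0.04) and with all 3 transgenes 7 (median 0.03) in the authors' deposited table, and 0 were called. Over all genes 43%, 42.9% and 44.1% were positive in the same order of genotypes. Photoreceptors of the disc are neurons too, and their part in these values was not tested. The salivary gland list was at a median of 1.60 with miR-11 and 0.86 with dE2F1/dDP, and the fat body list at 1.05 and -0.47, in the authors' deposited table. Hemocyte genes had 7 of 10 positive with miR-11 (median 0.31), 6 with dE2F1/dDP (median 0.03) and 6 with all 3 transgenes (median 0.16) in the authors' deposited table, and nimC1 was called higher in the first and the last. The salivary gland genes called higher were Sgs3, Sgs4 and Pig1 with miR-11 and Sgs3, Sgs4 and Eig71Ee with dE2F1/dDP in the authors' deposited table. With all 3 transgenes, Sgs5, Sgs7, Sgs8, ng1, ng3 and Pig1 were called lower in the authors' deposited table. Of all genes, 0.309% were called higher and 0.143% lower with miR-11, 0.136% and 0.211% with dE2F1/dDP, and 0.233% and 0.617% with all 3 transgenes. Of the genes entered in the fat body list, Lsp1gamma and Obp99b were called higher with miR-11 in the authors' deposited table. Obp44a was the only gene of that list below the control with miR-11. It was called lower with miR-11 (log2 -1.42), with dE2F1/dDP (-1.68) and with all 3 transgenes (-1.47) in the authors' deposited table. Which tissue the value of Obp44a comes from was not tested. With miR-11, where Mdr65 was lowest, 11 of 11 salivary gland genes and 9 of 10 fat body genes were positive in the authors' deposited table. Their part in the value of Mdr65 was not tested.

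**Figure D4:**
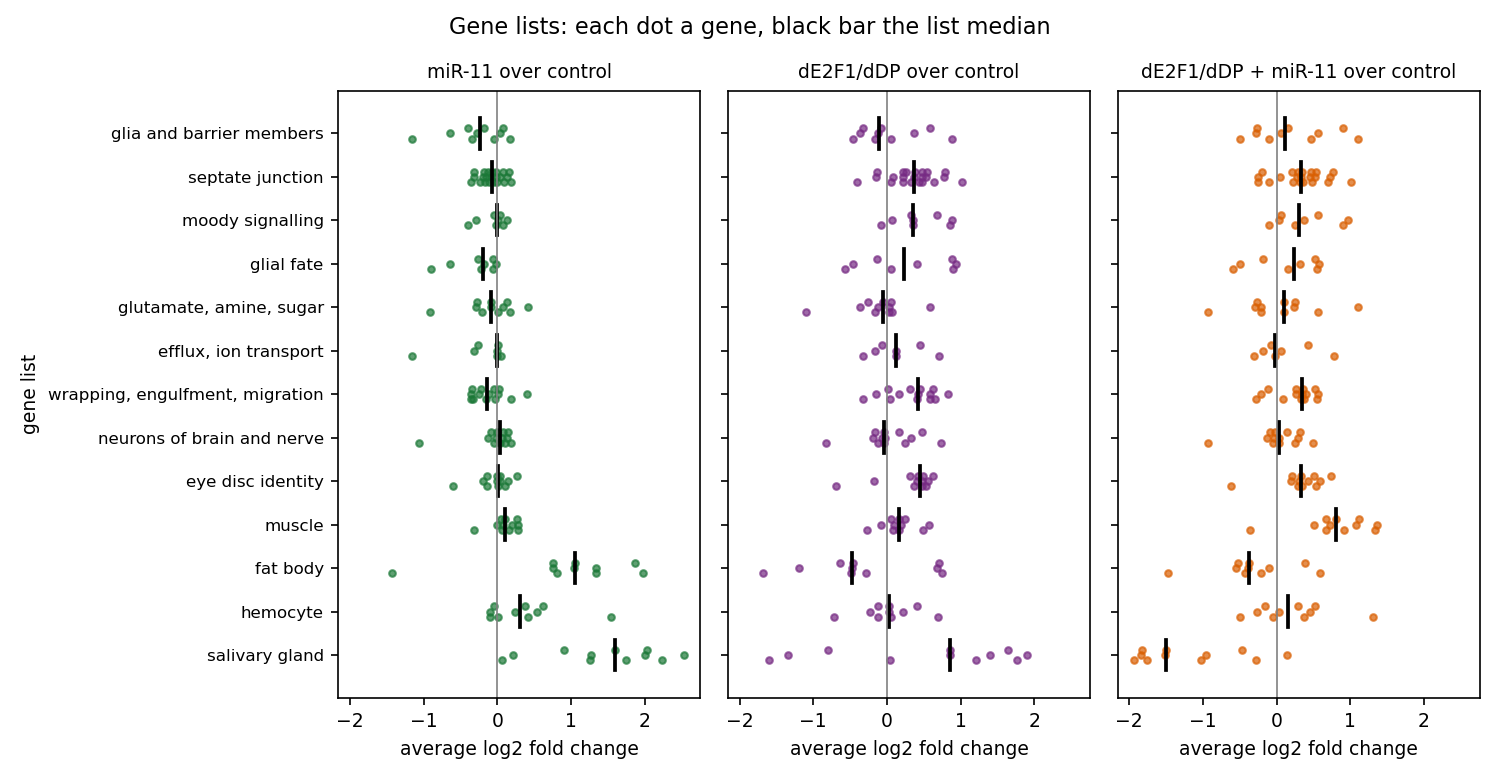
Average log2 fold change over the driver control (horizontal axes) of every matched gene (dots) of 13 gene lists (vertical axis), with the list median as a black bar, for miR-11, dE2F1/dDP and dE2F1/dDP with miR-11, from the authors' deposited table. The 10 members spread to both sides of 0 in each genotype, and salivary gland, fat body and muscle genes spread farther, with salivary gland medians of 1.60, 0.86 and -1.5.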

How the data were processed

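Biotin-labelled cRNA from 100 ng of total RNA was hybridised to 12 Affymetrix arrays, per the labels' protocols. The authors deposited log2 expression per probe set; per the submitters' processing notes the R package affy was used (settings: not given in the sources used here). A second deposited table gives the authors' rank product results per gene: average log2 fold changes, one-sided p-values and pfp scores, per the file headers. Of its 301 genes with an absolute log2 fold change of at least 1, 100% had a probe set within 0.01 in all 3 comparisons of the arrays as labelled, against at most 0.664% with the comparisons reordered.

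Probe sets were not named, so planned array tests of members were not run. From the 18769 probe sets left without 183 controls, the pooled SD within genotypes was computed (numpy 2.4.6), a step tested on simulated data. The number of arrays limits the precision.

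Members and gene lists were chosen with earlier results of these data known. Lists held 152 entries, of which 147 matched, 17 of them through RefSeq synonyms. All members are named, and of other lists the called genes or the 2 with the smallest p-value, and the extreme non-additive parts of glia-related lists. List values are described without a set test. Alternatives were other call thresholds and recentring on the median of all genes.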

Additional observations from a re-analysis of the deposited data

How the results depend on the processing

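With members called at a pfp under 0.1, the count was 1 with all 3 transgenes and 0 in each other genotype, and at an unadjusted p-value under 0.05 it was 2 with miR-11, 3 with dE2F1/dDP and 5 in discs with all 3 transgenes, against 0 in each at a pfp under 0.05 in the authors' deposited table. The looser threshold is itself the reason for the larger counts. Subtracting the median of all genes moved fold changes by 0.03 and the non-additive part by -0.03, so none of 40 member values changed sign, and the member medians kept theirs. No paired analysis was possible because named genes have values only in the authors' deposited table, which holds no array columns, and probe sets were not named from their values, and for the same reason the replicate block, leaving out each array, quantile normalization and the filter on dim probe sets were not run for the members. What 1 array contributes to the values of Mdr65, CG30035 or moody was not tested.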

Other observations

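The neuronal RNA-binding protein gene fne was at log2 -1.06 with miR-11 (pfp = 0.2317), -0.83 with dE2F1/dDP (pfp = 0.2046) and -0.93 with all 3 transgenes (pfp = 0.1151) in the authors' deposited table, while the medians of the neuronal list were 0.04, -0.04 and 0.03. The amyloid precursor-like gene Appl was at log2 0.15, 0.74 and 0.49 in the same order of genotypes in the authors' deposited table. The receptor tyrosine kinase gene sev, which acts in the R7 photoreceptor precursor, was at log2 -0.60, -0.69 and -0.62 in that order, with the rest of the eye list mostly positive, in the authors' deposited table. Also from the eye list, the photoreceptor surface protein gene chp was at log2 0.15 with miR-11 and -0.18 with dE2F1/dDP, and the retinal zinc finger factor gene gl at 0.74 with all 3 transgenes, in the authors' deposited table. Of the muscle genes, sls was at log2 0.07 and Act87E at 0.28 with miR-11, and sls at 0.49 and bt at 0.57 with dE2F1/dDP, in the authors' deposited table. The hemocyte gene nimB4 was at log2 -0.72 with dE2F1/dDP in the authors' deposited table. None of these genes was called, where at most 0.617% of all genes were called on either side, and the comparisons share the control arrays.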
